A study of Arabidopsis thaliana with 6 samples.

Results

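The calmodulins and calmodulin-like (CML) proteins of Arabidopsis were examined as a family. The family is taken as the calmodulin genes CAM1 to CAM7 and the genes CML1 to CML50, 57 loci that were matched to the array by locus number alone, out of 29030 loci on the array. All 57 had at least 1 probe, and together they had 75 of the 43603 probes. Names and numbers were given by the order in which the loci were listed. A calmodulin or CML name stands in the TAIR10.1 gene table for 21 of the 57 loci, and for the others the number was not checked against an annotation.

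Wild-type seedlings of ecotype Col-0 were grown in the dark for 3 days and then kept for 24 h at 22 °C, again in the dark, in liquid medium with 1 μM lasalocid sodium (LS) or with none. LS is a carboxylic ionophore, a small molecule that carries cations through membranes. Total RNA of whole seedlings was hybridised to 6 single-colour Agilent arrays, 3 for control seedlings and 3 for LS-treated seedlings. The sources used here do not state whether the control medium held the solvent of LS, nor whether the 3 samples of a group came from separate cultures, so the p-values measure the spread between these samples, which may be technical.

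Calmodulin is a small cytosolic protein with EF-hands, helix-loop-helix motifs that bind calcium. On binding calcium it changes shape and attaches to target proteins such as calcium pumps, ion channels, kinases and transcription factors. Plants carry, besides several near-identical calmodulins, a large set of CML proteins that diverge from calmodulin, and many CML genes are known to respond to touch, wounding, cold or pathogens.

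The 75th percentile of the signal was between 1067 and 2123 on the 6 arrays, 72.6% to 77.0% of spots were well above background, and 0 spots were saturated. One slide carried the control arrays and LS array 1, another carried LS arrays 2 and 3. For LS arrays 2 and 3 an effect of LS and a difference between slides therefore cannot be told apart. LS array 3 stood apart in its spike-in controls, RNAs added in fixed amounts, whose log2 signal lay 0.64 above the 75th percentile there and 1.64 to 2.31 above it elsewhere. Among markers of the seedling, PHYA and PORA, genes active in dark-grown tissue, were well above background on all 6 arrays, and the pollen genes VGD1 and PPME1 on none. The summed level of PHYA and PORA was 41.1 to 48.6 times the 75th percentile on the control arrays and 33.7 to 36.6 times on the LS arrays. The summed level of 6 root hair genes was 1.67 to 3.02 times the 75th percentile on the control arrays and 3.64 to 4.36 times on the LS arrays. The 1.67 was that of control array 3, against 2.63 on control array 2. PRP3 and RHD2, both among the 6, had log2 fold changes of 0.14 and -0.25, with overlapping groups. The summed level of 5 photosynthetic genes was 350 to 390 times on the control arrays and 236 to 291 times on the 2 LS arrays where all 5 were measured. No gene of these lists passed the test. At an unadjusted p under 0.05 in limma, whatever the fold, 4 root hair genes were above and 3 photosynthetic genes and PHYA below the controls. The methods' t-test, which here also required a fold change of at least 1.5, called 0 of these genes. Their part in the results was not tested. In RNA from whole seedlings, a change in the number of cells of a type and a change in RNA per cell cannot be told apart.

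Values are given as log2 of the processed signal minus the array's 75th percentile, so that 0 is the 75th percentile and each unit is a doubling. A level shows a gene's own change between arrays, and levels of different probes are not compared. The sums of marker genes above do add different probes, so the brightest probes weigh most in them. A gene was tested when one of its probes was well above background on all 3 arrays of either group, and the brightest such probe stood for the gene. A gene is said to have risen or fallen only where limma gave a Benjamini-Hochberg adjusted p under 0.05 over all tested probes together with a fold change of at least 1.5.

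Of the 57 genes, 49 were tested, 45 of them well above background on all 6 arrays. CML47 rose, by 14.1-fold when its control level was set to a floor described below. CML39, CML41 and CML44 rose between 2.03- and 2.30-fold. CML24 (TCH2) was called higher on 2 of its 3 probes but not on the brightest, which stands for the gene. None of CAM1 to CAM7 passed the test. With 1 probe per gene, 4 of the 49 genes were higher and 0 lower, which is 8.16% higher. Over all 21820 tested loci 3.18% were higher and 2.19% lower. The methods' t-test without adjustment, at the same fold change, called 6 family genes higher and 0 lower, against 5.56% and 4.51% of all loci. Limma at an unadjusted p under 0.05, whatever the fold, gave 13 higher and 2 lower (26.5% higher), against 12.9% and 13.1%. All measured LS arrays lay above all control arrays for 13 genes and below them for 4, one of which, CML19, was measured on 2 LS arrays. The shares of all tested loci were 17.6% and 17.9%. A fold change of at least 1.5, without a test, was reached upward by 12 genes (24.5%) and downward by 1, against 9.89% and 10.9% of all loci. With 3 arrays in each group, the smallest two-sided p of an exact permutation test is 0.1.

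Over the 49 genes the log2 fold change had a median of 0.09, against -0.03 over all tested loci, and 29 of 49 (59.2%) were above 0, against 47% of all tested loci. The changes ran from -0.79 (CML19) to 4.94 (CML47), and 25 of the 49 lay within 0.3 of 0. When spike-in controls set the scale of each array, the median of all loci moved to 0.55 and that of the family to 0.66.

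**Figure D1:**
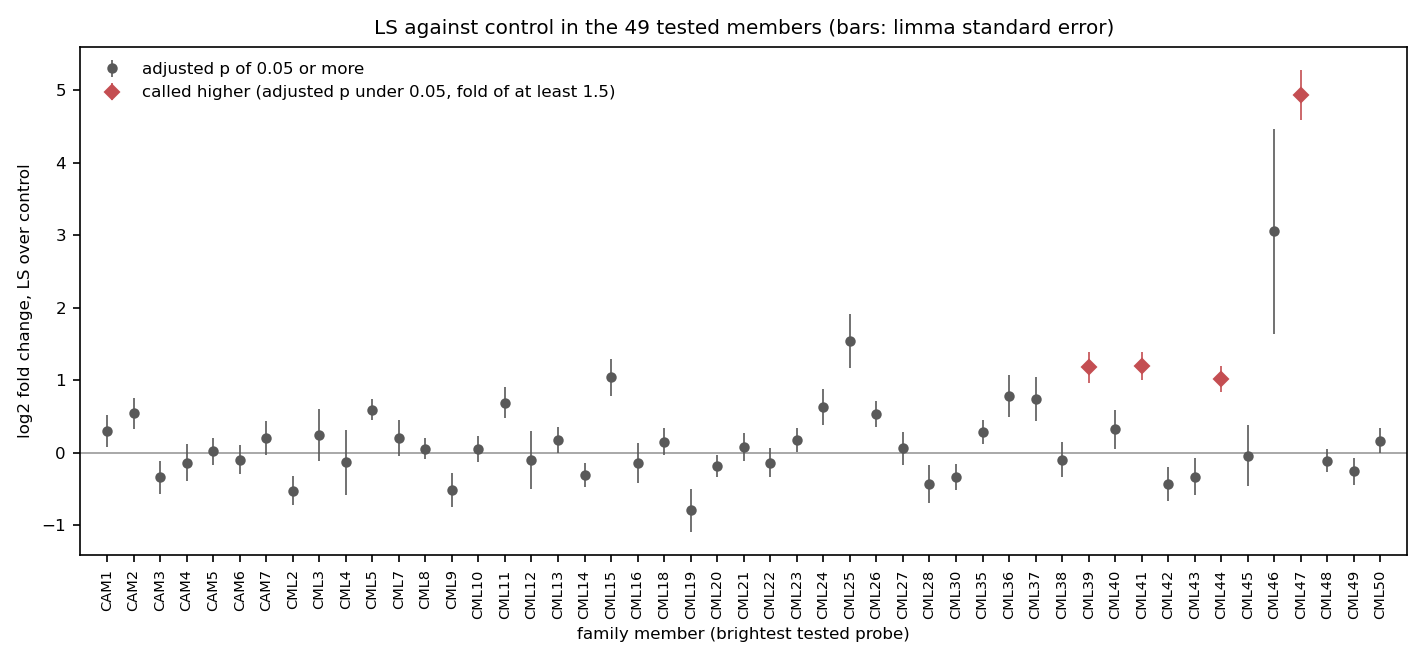
Log2 fold change (LS over control, vertical axis) of the 49 tested family genes in the order of their numbers (horizontal axis). Points are limma estimates from 3 arrays per group with their standard errors, and diamonds mark the 4 genes called higher, CML39, CML41, CML44 and CML47. CML46 has the widest error of those shown, 1.41.

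The number of family genes called depended on which arrays entered. It was 1 without control replicate 1, without control replicate 2, without LS replicate 1 or without LS replicate 3, and 3 without control replicate 3 or without LS replicate 2. CML47 was called in each of these 6 fits. It entered them only through the LS group, where it was high, and its control spots were not well above background on any array. Leaving out an array therefore does not test its control level. The share of all loci called higher moved as well, between 0.156% and 2.38%. LS array 1, the one on the controls' slide, gave log2 fold changes of 1.16 for CML39, 1.25 for CML41, 0.96 for CML44 and 4.96 for CML47 against those controls.

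**Figure D2:**
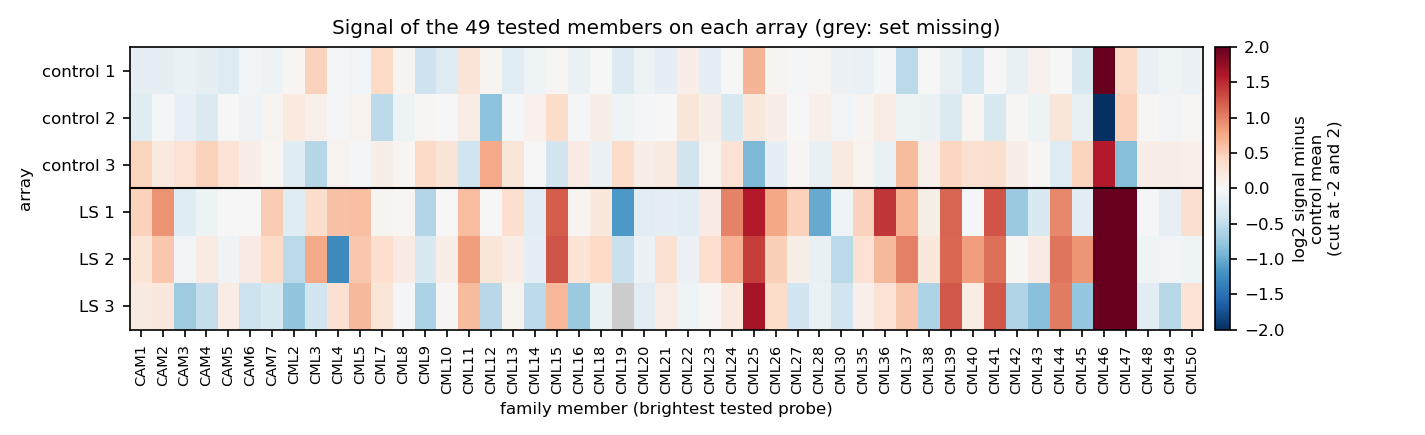
Log2 signal of the 49 tested genes (horizontal axis) on the 3 control and 3 LS arrays (vertical axis), shown as the difference from each gene's control mean, with colours cut at -2 and 2 and the value set missing for CML19 on LS array 3 in grey. CML25, CML39, CML41, CML44 and CML47 are above the control mean on all 3 LS arrays, and CML46 is far below its control mean on control array 2 alone.

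CML47 (AT3G47480) showed the largest change of the family. Its control values, in the order of the replicates as for every gene, were -7.97, -7.90 and -9.21, and its LS values were -3.40, -3.53 and -3.34. The control spots were not well above background on any array, whereas the LS spots were so on all 3, and the groups lay far apart. In scanner units the processed signal was 5.78, 5.87 and 1.81 in the controls and 124, 130 and 210 under LS. Because the control level was not well measured, the change is given as 14.1-fold higher, the LS mean set against a floor. The floor is the mean over the control arrays of the dimmest signal that was still well above background. A spot brighter than that can still fail to be well above background, so 14.1-fold is not a strict lower bound. The fitted log2 fold change of 4.94 (limma adjusted p = 0.0034, and 0.00292 to 0.0215 with each array left out in turn) rests on those control spots, and the gene was tested only through the LS group, where it was high. With probes required to be well above background on all 6 arrays CML47 was not tested, and 3 of 45 family genes were called higher, against 2.98% of all loci. After a normexp background correction, which adds an offset of 50 to the signal, it was 1.34 (adjusted p = 0.00527).

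The 2 genes numbered before it, CML45 and CML46, did not pass the test. CML46 (AT5G39670), named after its values were seen, was at -3.28, -9.29 and -3.91 in the controls and at -2.07, -2.35 and -2.87 under LS. All 3 LS values lay above the control values, but control array 2 fell far below the other controls and was not well above background there, without an outlier mark. Its log2 fold change was 3.06 ± 1.41 (SE, limma adjusted p = 0.224). Without control replicate 2 it was 1.16 (adjusted p = 0.151). CML46 was called higher under 1 of 21 alternatives, with arrays scaled on spike-in controls. CML45 gave -0.04 on both of its probes, with overlapping groups.

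Among CML37 to CML44, 3 of 8 genes rose and none fell, against 3.18% higher and 2.19% lower over all tested loci. The family's members and their numbered groups were chosen with earlier results of these data known. CML37 to CML44 hold 3 of the 4 family genes called higher, so their share is a description and not a test. Of the other 5 genes among CML37 to CML44, none was called at an adjusted p, and 1, CML37, had an unadjusted p under 0.05. CML41 (AT3G50770), whose protein is known from plasmodesmata, the channels between plant cells, and from their closure in immunity, was at -2.54, -2.83 and -2.21 in the controls and at -1.27, -1.41 and -1.29 under LS. The LS arrays agreed closely and all lay above the controls, a 2.30-fold rise (log2 fold change 1.20 ± 0.19 SE, limma adjusted p = 0.0265). CML39 (AT1G76640), known for a role in early seedling establishment, was at -0.71, -0.86 and -0.13 in the controls and at 0.60, 0.58 and 0.68 under LS. Its rise was 2.27-fold (log2 fold change 1.18 ± 0.21 SE, limma adjusted p = 0.0316), and the spread under LS (SD 0.05, n = 3) was smaller than in the controls (SD 0.38, n = 3). CML44 (AT1G21550) was at -4.33, -4.11 and -4.60 in the controls and at -3.39, -3.28 and -3.32 under LS. The groups did not overlap, and the rise was 2.03-fold (log2 fold change 1.02 ± 0.17 SE, limma adjusted p = 0.0294).

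These 3 calls lay close to the threshold. With each array left out in turn the log2 fold change stayed between 1.04 and 1.40 for CML39, between 1.05 and 1.36 for CML41 and between 0.89 and 1.14 for CML44. The adjusted p ran from 0.0339 to 0.126, from 0.0427 to 0.104 and from 0.049 to 0.096, in that order. CML39 was called only without control replicate 3, CML41 without control replicate 3 or LS replicate 2, and CML44 without LS replicate 2. With slide as a block none of the 3 was called, with adjusted p of 0.189 for CML39, 0.148 for CML41 and 0.176 for CML44.

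CML37 (AT5G42380), a gene known to respond to wounding and herbivory, was at -0.29, 0.15 and 0.88 in the controls and at 0.94, 1.26 and 0.78 under LS. Control array 3 reached into the LS range, and the log2 fold change was 0.75 (adjusted p = 0.176 from limma). Its other probe gave 0.76 (adjusted p = 0.128). CML42 and CML43 gave -0.43 and -0.33, with overlapping groups. CML38, which lies directly beside CML39 on chromosome 1 in the TAIR10.1 order of genes, gave -0.10 against 1.18 for CML39, a difference that was not tested.

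**Figure D3:**
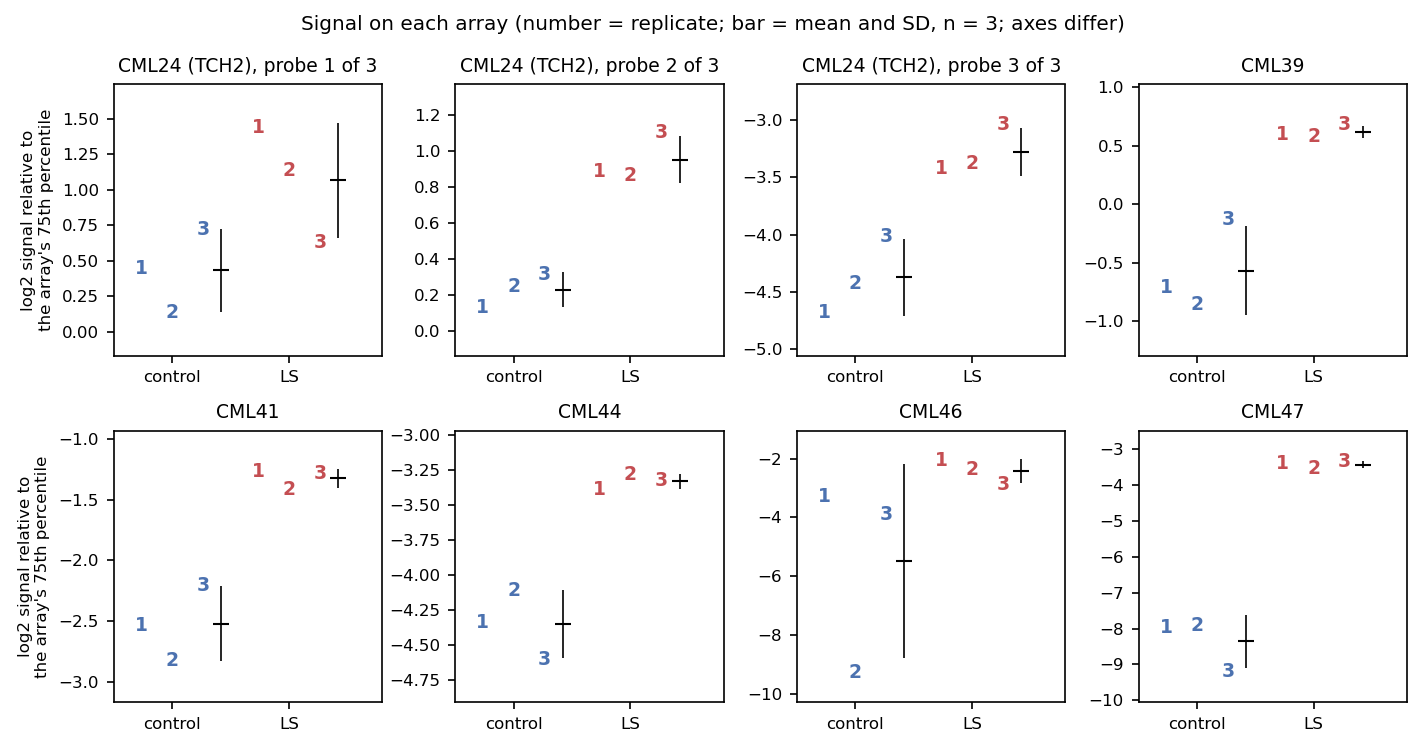
Log2 signal relative to the array's 75th percentile (vertical axis, a scale of its own in each panel) in the control and LS groups for the 3 probes of CML24, the 4 genes called higher and CML46. Numbers are the replicates of each group and the bars are the mean and SD of 3 arrays. The LS values lie above all control values except on the first probe of CML24, where LS array 3 (0.63) is below control array 3 (0.72).

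The touch genes, first found as transcripts that accumulate when a plant is bent or brushed, include CAM1 (TCH1), CML24 (TCH2) and CML12 (TCH3). CML24 (AT5G37770) has 3 tested probes, and 2 of them were called higher, where 2.6% of all 32351 tested probes were higher and 2.45% lower. The brightest was at 0.44, 0.14 and 0.72 in the controls and at 1.43, 1.13 and 0.63 under LS. LS array 3 fell within the control range, and the log2 fold change of 0.63 was not called (SE 0.25, limma adjusted p = 0.173). The second probe was at 0.13, 0.24 and 0.31 in the controls and at 0.89, 0.86 and 1.102 under LS. Its log2 fold change was 0.72 ± 0.15 (SE, limma adjusted p = 0.0448). The third was at -4.68, -4.43 and -4.01 against -3.42, -3.38 and -3.04, with a log2 fold change of 1.09 ± 0.22 (SE, limma adjusted p = 0.0382). Neither call held with any 1 array left out, where the adjusted p ran from 0.0577 to 0.157 and from 0.0542 to 0.138. CML23, the closest relative of CML24 in the family, gave 0.18 (adjusted p = 0.528).

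CML12 (AT2G41100) was not called on either of its 2 probes. The brighter was at 5.05, 4.18 and 5.75 in the controls and at 4.98, 5.24 and 4.45 under LS, and the groups overlapped over nearly their whole range (log2 fold change -0.10 ± 0.40 SE, limma adjusted p = 0.894). The other probe gave -0.68 (adjusted p = 0.22). On chromosome 2, CML10 and CML12 are direct neighbours and CAM2 follows after 1 gene, and the log2 fold changes of the 3 were 0.05, -0.10 and 0.55. On chromosome 5, CML24 lies directly beside CAM1, with 0.63 and 0.30.

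All 7 calmodulin genes were well above background on all 6 arrays and none was called. At an unadjusted p under 0.05, whatever the fold, limma gave 1 higher, CAM2, and 0 lower. The methods' t-test, which also required a fold change of at least 1.5, gave 0 in either direction. CAM2 (AT2G41110) was at 3.16, 3.30 and 3.53 in the controls and at 4.23, 3.87 and 3.54 under LS. The groups touched without overlapping, and the log2 fold change was 0.55 ± 0.22 (SE, limma adjusted p = 0.167). CAM1 (AT5G37780) was at 3.08, 3.04 and 3.72 against 3.73, 3.54 and 3.45, where control array 3 lay among the LS values. Its log2 fold change was 0.30 (adjusted p = 0.432).

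CAM7 (AT3G43810), whose protein is also known to bind the promoters of light-regulated genes, was at 4.63, 4.79 and 4.77 in the controls and at 5.24, 5.13 and 4.42 under LS. LS array 3 was below all controls while the other LS arrays were above them, and the log2 fold change was 0.20 (adjusted p = 0.63). CAM4 (AT1G66410) was at 4.49, 4.37 and 5.13 against 4.56, 4.83 and 4.19, a log2 fold change of -0.13 (adjusted p = 0.779). CAM5 (AT2G27030) was at 0.78, 1.04 and 1.31 against 1.03, 0.97 and 1.19, with 0.02 (adjusted p = 0.959) and with 0.19 on its second probe. In both genes the groups overlapped. CAM6 (AT5G21274) was at 2.30, 2.29 and 2.49 against 2.34, 2.53 and 1.93, with -0.09 (adjusted p = 0.801).

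CAM3 (AT3G56800) has 4 tested probes. The brightest was at 5.09, 5.07 and 5.52 in the controls and at 4.99, 5.17 and 4.51 under LS, a log2 fold change of -0.34 ± 0.23 (SE, limma adjusted p = 0.388). The other probes gave -0.44, -0.34 and -1.001, the last on a dim probe where the LS arrays lay below all controls (adjusted p = 0.0942) and 1 LS array was not well above background. None was called, and the brightest turned to 0.24 with arrays scaled on spike-in controls. Calmodulin genes encode near-identical proteins, and whether a probe also binds the transcript of a sister gene was not tested, since probe sequences were not used here.

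**Figure D4:**
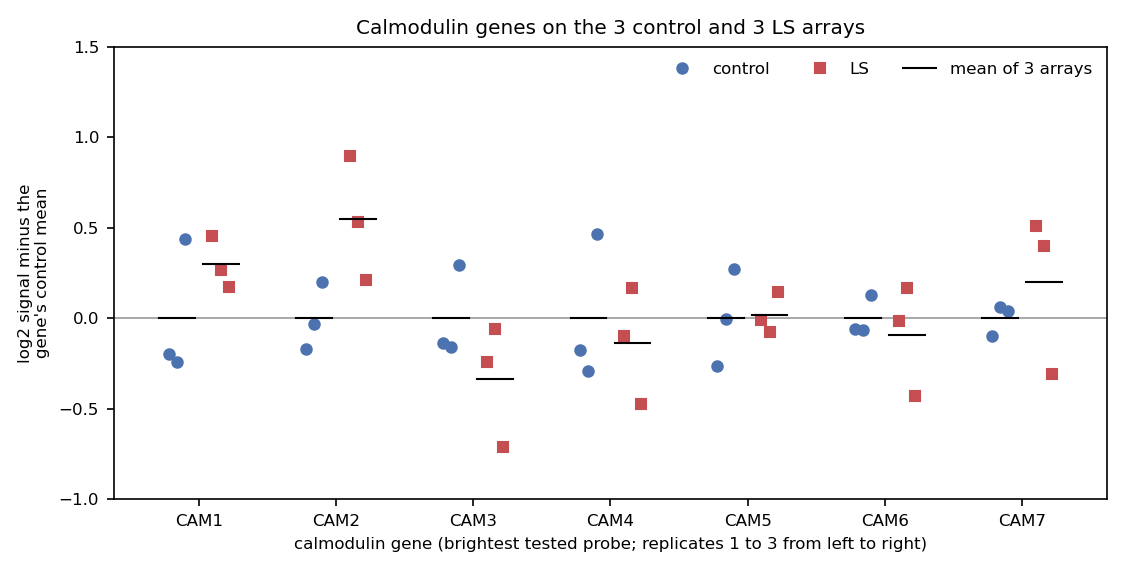
Log2 signal of CAM1 to CAM7 (horizontal axis) as the difference from each gene's control mean (vertical axis) on the 3 control arrays (circles) and 3 LS arrays (squares), with lines at the group means. Only for CAM2 do all LS arrays lie above all control arrays (3.54 to 4.23 against 3.16 to 3.53), and LS array 3 is the lowest LS array for every gene except CAM5.

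Of the 5 genes CML8 to CML12, close relatives of the calmodulins, none was called and 1, CML11, had an unadjusted p under 0.05. CML11 (AT3G22930) was at -3.01, -3.10 and -3.66 in the controls and at -2.65, -2.42 and -2.62 under LS. The groups did not overlap (log2 fold change 0.69 ± 0.21 SE, limma adjusted p = 0.0969). CML9 (AT3G51920), known for a part in stress and defence responses, gave -0.51 (adjusted p = 0.219), the lowest of the genes outside the naming rule, and CML8 gave 0.06.

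In CML1 to CML7, 5 of 7 genes were tested and none was called. CML5 (AT2G43290), named MSS3 in the gene table for suppressing a yeast snf4 defect, was at 1.56, 1.69 and 1.59 in the controls and at 2.22, 2.15 and 2.27 under LS. The replicates lay close together (SD 0.07 and 0.06, n = 3 each) and the groups apart, but the log2 fold change of 0.60 did not pass (SE 0.14, limma adjusted p = 0.0576). It was called higher with quantile normalization and after the normexp correction. CML2 (AT4G12860, UNE14) was at -6.38, -6.22 and -6.65 against -6.66, -6.95 and -7.21, all LS arrays just below the controls. Its log2 fold change was -0.52 (adjusted p = 0.163), and it was well above background on 2 of 3 LS arrays. CML7, which the gene table names ROOT HAIR SPECIFIC 1, gave 0.21 with overlapping groups (adjusted p = 0.641), beside the higher summed level of root hair genes.

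CML25 (AT1G24620) had the largest change among genes that were well above background on all 6 arrays and were not called. It was at -5.07, -5.53 and -6.64 in the controls and at -4.16, -4.35 and -4.10 under LS, with control array 3 the lowest. The log2 fold change was 1.54 ± 0.37 (SE, limma adjusted p = 0.058). Without control replicate 3 it was 1.09. CML15 (AT1G18530) was at -6.87, -6.52 and -7.27 against -5.68, -5.63 and -6.22, with 1.04 (SE 0.25, limma adjusted p = 0.0575). Both genes were called with quantile normalization and with all probes of a locus averaged. CML15 was dim, well above background on 2 of 3 control arrays, and after the normexp correction its log2 fold change was 0.11.

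The values of CML26 and CML36 were also above the controls at an unadjusted p under 0.05. CML26 (AT1G73630) was at -2.29, -2.21 and -2.53 in the controls and at -1.57, -1.87 and -1.98 under LS, a log2 fold change of 0.54 (adjusted p = 0.119 from limma). CML36 (AT3G10190) was at 1.40, 1.56 and 1.29 against 2.85, 2.06 and 1.70, where LS array 1 stood well above the other LS arrays. Its log2 fold change was 0.79 ± 0.29 (SE, limma adjusted p = 0.147), and 0.46 without LS replicate 1. Its second probe gave 0.52, with overlapping groups and an unadjusted p of 0.063 in limma.

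The centrins, relatives of calmodulin known from microtubule organisation and DNA repair, lay below the controls without being called. CML19 (AT4G37010) was at 0.88, 1.08 and 1.53 in the controls and at 0.02 and 0.72 on LS arrays 1 and 2, and its value on LS array 3 carried an outlier mark and was left out of the fit. The log2 fold change was -0.79 ± 0.29 (SE, limma adjusted p = 0.158). Its other 3 probes, measured on all arrays, gave -0.30, -0.73 and -0.72. CML20 (AT3G50360), the other centrin, gave -0.18 (adjusted p = 0.478), with all LS arrays below all control arrays.

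The remaining named genes were the extremes of their numbered groups. CML14 (AT1G62820) was at 2.38, 2.55 and 2.46 against 2.26, 2.29 and 1.93, a log2 fold change of -0.30 (adjusted p = 0.294). CML22 (AT3G24110) was at -2.84, -2.73 and -3.34 against -3.19, -3.08 and -3.06, with -0.14 (adjusted p = 0.702), and CML49 (AT3G10300) was at 3.79, 3.84 and 4.03 against 3.73, 3.84 and 3.33, with -0.25 (adjusted p = 0.427). The other probes of CML49 gave -0.52 (adjusted p = 0.148), with all LS arrays below the controls, and -0.50 (adjusted p = 0.21). On their brightest probes the other 23 tested genes had log2 fold changes from -0.51 to 0.32, and the smallest adjusted p among them was 0.219. For 21 of the 23 the groups overlapped. A second, dim probe of CML50, one of the 23, gave 0.73 (adjusted p = 0.111), with all LS arrays above the controls.

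The other 8 genes were not tested because none of their probes was well above background throughout a group. CML1, CML6, CML29, CML32 and CML33 were not well above background on any array, CML34 was so on 1, CML17 on 2 and CML31 on 4. CML29 is named a pollen calcium-binding protein in the gene table. Of the 11 genes with several tested probes, all had probes of one sign, and CML24 was the one whose probes differed in whether they were called.

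Other genes of calcium signalling were counted from lists by locus. Over all 21820 tested loci 3.18% were called higher and 2.19% lower. At an unadjusted limma p under 0.05, whatever the fold, the shares were 12.9% and 13.1%. For the methods' t-test without adjustment, at a fold change of at least 1.5, they were 5.56% and 4.51%. None of the 9 tested calcineurin B-like sensors, 6 CAMTA transcription factors (which bind calmodulin) or 8 CBP60 calmodulin-binding proteins was called. At an unadjusted p under 0.05, whatever the fold, limma gave 1, 0 and 1 higher and 0 lower in these lists. The methods' t-test, which also required a fold change of at least 1.5, gave 0 in each direction. The median log2 fold changes of the 3 lists were -0.01, -0.15 and -0.10. Of 25 calcium-dependent protein kinases, 0 were higher and 1 lower. That gene, CPK23, known as an activator of guard cell anion channels, had a log2 fold change of -1.33 ± 0.29 (SE, limma adjusted p = 0.0455). It was called in 1 of 6 fits with an array left out, the one without LS replicate 2 (adjusted p from 0.0325 to 0.138 over the 6). Of 16 cyclic nucleotide-gated channels, which calmodulin regulates, 1 was higher and 0 lower. CNGC19, a channel known from the response to herbivores, had 1.27 (SE 0.18, limma adjusted p = 0.0225). The call was lost without any 1 control array and held without any 1 LS array (adjusted p from 0.0326 to 0.0982). Of 9 autoinhibited calcium pumps, which calmodulin activates, 1 was higher and 0 lower, ACA9, a pump known from pollen, with 1.21 (SE 0.20, limma adjusted p = 0.0282), and the median of the 9 was 0.35. Its call held without control replicate 1 or LS replicate 2 and was lost without any other array (adjusted p from 0.0483 to 0.113). At an unadjusted p under 0.05, whatever the fold, limma gave 4 pumps higher and 1 lower. The methods' t-test, at a fold change of at least 1.5, gave 2 higher and 0 lower. For the kinases these counts were 2 higher and 3 lower by limma and 1 in each direction by the methods' t-test, and for the channels 2 and 1 higher with 0 lower. With slide as a block none of CPK23, CNGC19 and ACA9 was called (adjusted p = 0.119, 0.138 and 0.183).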

How the data were processed

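The authors scanned 6 arrays, 1 per sample, and Agilent Feature Extraction 10.7.3.1 subtracted the background and wrote a processed signal, the linear intensity used here. A value table of 38614 spots deposited by the authors holds a ratio, that signal over the array's 75th percentile. Samples were grouped by title, and the number of unmapped columns was 0. In the scanner data 1417 control spots were left out, log2 signals were centred on each array's 75th percentile, marked outliers were set missing, and spots of a probe were averaged. Probes well above background on every array of a group, with at least 2 values in each group, were tested, 32351 of 43603 probes and 66 of the family's 75. R 4.3.3 with limma 3.58.1 (lmFit, eBayes) compared LS with control without covariates. The fit was tested on simulated data whose shifts were far larger than the changes of CML39, CML41 and CML44 and which held no slide effect. That test does not bear on calls of their size. The number of arrays, 3 per group, limits the precision.

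Members, their numbered groups and the lists were chosen with earlier results of these data known. Values on every array are given for CAM1 to CAM7, CML12, CML24, each gene with a called probe or an unadjusted p under 0.05, and the largest change of each numbered group. Alternatives covered background correction, scaling, filters, tests, thresholds, blocks, the deposited table, averaged probes and each replicate left out. Sequences were not used here.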

Additional observations from a re-analysis of the deposited data

How the results depend on the processing

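The number of family genes called higher was 4 of 49, or 8.16%. Each percentage in brackets below is the share of all tested loci called higher, 3.18% in the main fit. The family number was 7 after the normexp correction (3.79%), 7 with quantile normalization (3.76%) and 8 with all probes of a locus averaged (4.54%). For limma without adjustment at a fold change of at least 1.5 it was 11 (8.83%). With arrays scaled on spike-in controls it was 5 (3.3%), with CML25 and CML46 called and CML44 not called. It was 1 without a filter on dim probes (0.393%) and 0 for the methods' t-test after Benjamini-Hochberg adjustment, where 1 of all 21820 loci was called. With slide as a block, where LS array 1 alone carries the comparison, it was 1 (0.101%), and the median of the family was 0.12. With 1 array left out it ran from 1 to 3. The number called lower, 0, was 1 for limma without adjustment at that fold change (CML19) and 0 in every other setting. The median log2 fold change of 0.09 was 0.66 with arrays scaled on spike-in controls, where all loci moved by about as much, and between 0.04 and 0.19 with 1 array left out. The replicate numbers are shared between groups, but arrays with the same number did not deviate together (correlations 0.03, -0.12 and -0.19), and with the number as a replicate block 1 family gene was called, CML47, against 0.779% of all loci. CML39, CML41 and CML44 kept their direction over 22 alternatives each and were no longer called under 9, 8 and 10 of them. CML47 over 21 alternatives lost its call under 1, the methods' t-test after adjustment, and was not tested with the filter on all 6 arrays. Wherever a filter was used and CML47 was tested, it entered only through the LS group, where it was high. CPK23, CNGC19 and ACA9 also lost their calls without a filter on dim probes, with the replicate block and under the methods' t-test after adjustment. CPK23 lost its call with spike-in scaling too. ACA9 lost its call after the normexp correction, where its log2 fold change of 0.55 fell short of the fold threshold. Genes called here at low signal, such as CML47, are limited by the background, since the size of their change depends on how it was subtracted.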
